A study of Homo sapiens with 8 samples.

Results

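Activins are secreted dimers of inhibin β subunits, encoded by genes such as INHBA, INHBB and INHBE. An activin binds a type II receptor, ACVR2A or ACVR2B, which recruits and activates a type I receptor, classically ACVR1B, and the activated pair phosphorylates the same SMAD transcription factors that the TGF-β receptors use. Follistatin (FST) and follistatin-like 3 (FSTL3) wrap around the ligand outside the cell and block receptor binding. In breast tissue and breast tumours the pathway is known for effects on growth arrest, matrix production and invasion.

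The 10 genes described here are the β subunits INHBA, INHBB and INHBE, the follistatin family genes FST, FSTL1 and FSTL3, and the receptors ACVR1, ACVR1B, ACVR2A and ACVR2B. They were taken by gene name from a count table of 60708 genes, where each name matched 1 row, and all 10 were among the 16008 genes with enough reads to be tested. RNA was sequenced from HS578T, an established human breast carcinoma line of mesenchymal character, in 4 groups of 2 libraries. All cells were transfected with 25 µg of plasmid, encoding green fluorescent protein in the Mock groups and HSF2, a heat shock factor, in the HSF2oe groups. From 24 h after transfection they spent a further 24 h in assay medium of low serum, either alone (control) or with 10 ng/ml of the cytokine TGF-β1 (TGF-β). The groups are thus Mock control, Mock TGF-β, HSF2oe control and HSF2oe TGF-β, and their differences ask how TGF-β1 and HSF2 act on these cells, alone and together. Every group went through transfection, so untransfected cells are not among them, and everything rests on 1 cell line. A treatment field in the labels names DMSO for all Mock and TGFb1 for all HSF2oe libraries, against the titles and the design text, and the titles were followed.

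Total counts ranged from 17427645 to 34336107 per library. HSF2 stood at 5.40 to 8.36 CPM (counts scaled to a common library size) in the 4 Mock libraries and at 489 to 937 CPM in the 4 HSF2oe libraries, as the titles say. All 5 markers listed for HS578T (VIM, CDH2, FN1, SPARC and CD44) were expressed. Their summed level, mostly FN1, was 34728 to 41630.1 CPM in control libraries and 49248 to 72101 CPM with TGF-β. Over the 8 libraries FN1 ranged from 25203.5 to 54264 CPM and SPARC from 2548 to 11615. VIM ranged from 3181 to 4176 CPM, CD44 from 1244 to 1966 and CDH2 from 463 to 1315. Of 8 luminal markers, ESR1 and EPCAM were at or below 0.197 CPM and PGR had no read. The other 5 were tested: KRT18 at 177 to 275 CPM, KRT8 at 15.6 to 26.1, GATA3 at 7.58 to 15.2, FOXA1 at 1.95 to 3.20 and CDH1 at 0.256 to 1.17. The summed luminal level, mostly KRT18, was 274 to 305 CPM in Mock and 211 to 249.9 CPM in HSF2oe libraries. Blood markers summed to 0.654 to 4.08 CPM, with CD3E and HBB at 0, and endothelial markers to 3.15 to 5.78 CPM; the part of these levels in the results was not tested. CPM were scaled with the trimmed mean of M values (TMM), and TMM factors were 1.03 to 1.11 in control libraries and 0.857 to 1.01 with TGF-β. Scaled by library totals alone, the median of all genes shifted by -0.27 (log2) with TGF-β in Mock, by -0.17 in HSF2oe cells, and by 0.09 and 0.19 for HSF2oe over Mock without and with TGF-β.

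The starts of INHBA and FSTL3, a ligand and its antagonist, are shown because both genes rose with TGF-β1 in both transfections while their starts differ in base composition. Each line gives the 250 bases before the RefSeq start, read along the gene (RefSeq, GRCh38.p14), at chr7:41703091-41703340 on the minus strand for INHBA and chr19:676142-676391 on the plus strand for FSTL3. The FSTL3 stretch ends 1 base before the gene begins in the count table's annotation. The INHBA stretch lies inside the gene's annotated span, whose outermost transcript starts further upstream.
INHBA upstream: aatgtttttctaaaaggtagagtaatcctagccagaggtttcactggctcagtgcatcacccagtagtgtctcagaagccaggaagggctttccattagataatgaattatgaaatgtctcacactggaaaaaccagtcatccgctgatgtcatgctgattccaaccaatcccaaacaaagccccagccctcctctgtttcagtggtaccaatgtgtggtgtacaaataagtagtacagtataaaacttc
FSTL3 upstream: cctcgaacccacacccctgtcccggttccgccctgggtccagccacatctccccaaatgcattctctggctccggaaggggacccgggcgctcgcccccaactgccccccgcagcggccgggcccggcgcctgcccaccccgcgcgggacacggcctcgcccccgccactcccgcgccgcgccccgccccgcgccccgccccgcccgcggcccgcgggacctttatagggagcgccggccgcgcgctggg
INHBA SMAD box: tgaagaggagctCAGACagctcttaccaca

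The INHBA stretch is 42.8% G and C with 1 CpG, and the FSTL3 stretch is 80.0% G and C with 36. The third line is a 30-base site at chr7:41703046-41703075 (minus strand), just after the INHBA start, whose capitals mark the SMAD box CAGAC. Over the full window of 250 bases before to 50 after a start, searched on both strands, CAGAC was found in 5 of the 12 promoters that the table lists for 9 of the 10 genes (41.7%), against 45.3% of all 35116 promoters. It was found for INHBA, ACVR1, ACVR1B and ACVR2A. The palindromic SMAD element GTCTAGAC (0.202% of all promoters) and a heat shock element of GAA, TTC and GAA, each 2 bases from the next (0.49%), were in none of the 12.

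Transcript levels were compared between genes per length, as RPKM, which is CPM divided by the exonic length in kilobases. That length counts every annotated exonic base of a gene. Which of these bases the cells transcribe was not tested, so comparisons between genes depend on it. In Mock control cells the order by mean RPKM was FSTL1 (341 ± 53.5, mean ± SD, n = 2 here and below), FST (44.0 ± 7.53), INHBA (37.4 ± 3.29), FSTL3 (32.1 ± 0.0246), INHBB (29.8 ± 5.19), INHBE (20.1 ± 4.05), ACVR1 (10.8 ± 1.11), ACVR1B (3.80 ± 0.165), ACVR2A (1.60 ± 0.0520) and ACVR2B (0.254 ± 0.0492). The libraries of FST and INHBA overlapped, as did those of FSTL3 and INHBB; the other neighbours in this order did not. FSTL1, a secreted glycoprotein with a follistatin-like domain, thus stood far above every ligand, and the type II receptors stood lowest. In Mock TGF-β cells INHBA (125 ± 14.7 RPKM), FSTL3 (101 ± 0.156 RPKM) and INHBE (63.5 ± 6.47 RPKM) had moved above FST (39.2 ± 11.6 RPKM), with no overlap between neighbours, and INHBB (13.9 ± 3.0 RPKM) overlapped ACVR1 (17.2 ± 2.14 RPKM). In HSF2oe control cells INHBE (5.19 ± 2.11 RPKM) was below ACVR1 (8.92 ± 0.595 RPKM) and overlapped ACVR1B (3.92 ± 0.143 RPKM). In HSF2oe TGF-β cells the order was FSTL1, INHBA (124 ± 3.54 RPKM), FSTL3 (63.5 ± 1.27 RPKM), FST (55.8 ± 5.30 RPKM), INHBE (15.0 ± 6.90 RPKM), INHBB (11.1 ± 3.53 RPKM) and ACVR1 (10.5 ± 0.438 RPKM), the last 3 overlapping their neighbours, and then the other receptors.

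**Figure D1:**
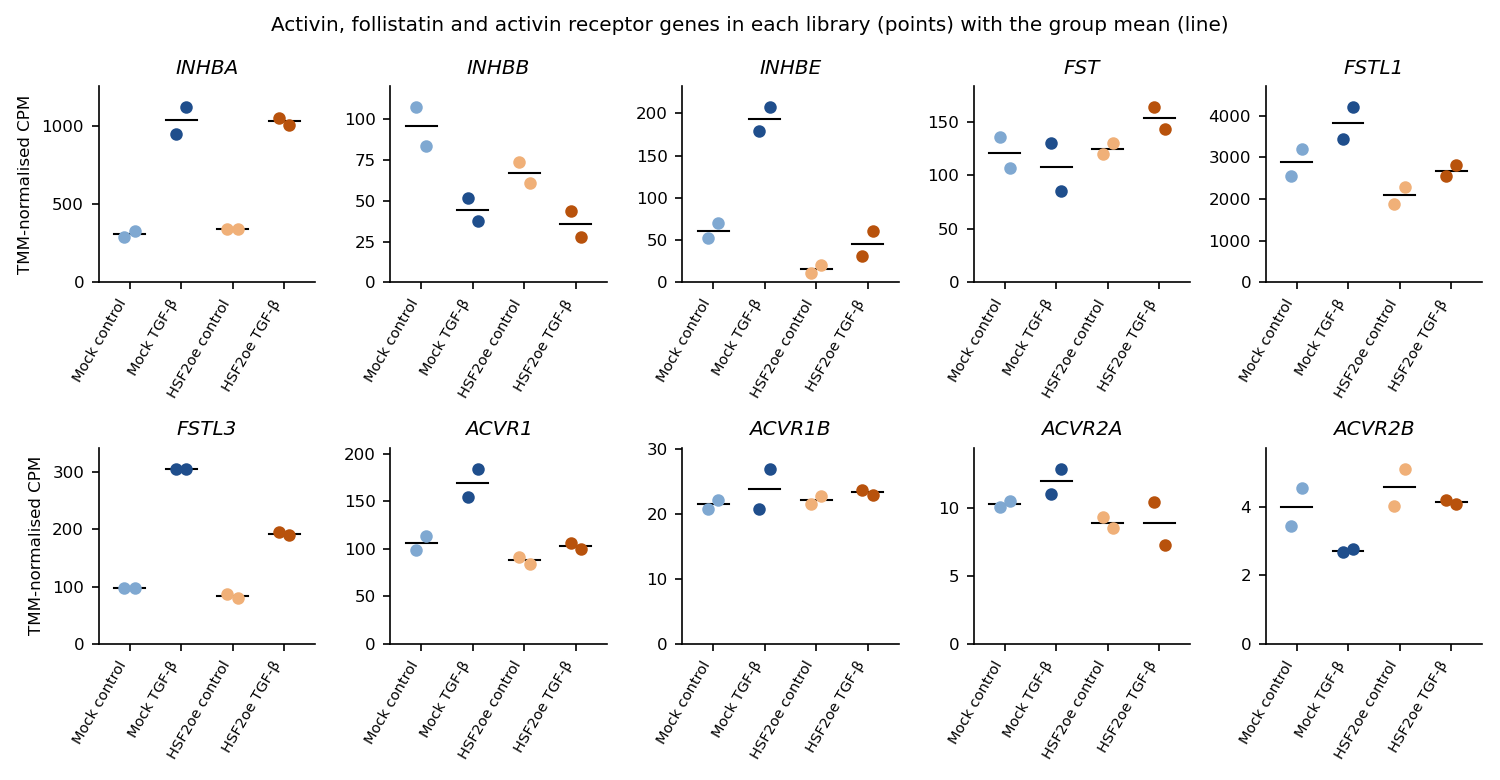
TMM-normalised CPM (y axis, from 0, a scale per gene) of the 10 genes in each library, with 2 points per group and a line at the group mean. INHBA rises to about the same level in both TGF-β groups, INHBE is lowest in HSF2oe control, and FSTL3 with TGF-β is higher in Mock than in HSF2oe.

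With TGF-β1 in Mock cells, the subunit genes INHBA and INHBE and the antagonist gene FSTL3 rose about 3-fold, the receptor gene ACVR1 rose 1.60-fold, and the subunit gene INHBB fell. Of the 10 genes, 4 rose and 1 fell, while 13.8% of all genes tested were called in this comparison, 7.32% up and 6.5% down (adjusted p under 0.05, quasi-likelihood F test of edgeR, adjusted by Benjamini and Hochberg over all genes, as in every comparison below). The median log2 fold change over the 10 was 0.31, beside -0.00 over all genes. In bulk RNA, fewer cells of a kind and less RNA per cell cannot be told apart. The labels do not say whether the libraries of a group came from separate cultures, so p-values measure the spread between these libraries.

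INHBA (ENSG00000122641.11, chromosome 7, 41667168 to 41705834, minus strand, GRCh38 as in the count table), whose product forms activin A, measured 290.3 and 329 CPM in the Mock control libraries and rose to 951 and 1123 CPM with TGF-β1. The HSF2oe control libraries held 340.4 and 341 CPM of it, and with TGF-β1 they held 1052 and 1011 CPM. Both TGF-β groups lay far above both control groups and overlapped each other. The log2 fold change of INHBA with TGF-β was 1.74 ± 0.11 (± standard error here and below) in Mock and 1.60 ± 0.11 in HSF2oe cells (adjusted p = 7.40e-07 and 2.55e-06, edgeR). HSF2oe over Mock gave 0.14 without TGF-β (95% interval -0.10 to 0.38) and -0.01 with it (-0.24 to 0.23), and neither passed the test (adjusted p = 0.457 and 0.971). The second of these, near 0, changed sign in several settings and was 0.19 when scaled by library totals alone. INHBA shares 2.99% of its exonic bases with an antisense gene, INHBA-AS1, which had 14 to 77 counts per library.

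INHBB (ENSG00000163083.6, chromosome 2, 120346136 to 120351803, plus strand), the activin B subunit gene, moved the other way. Mock cells held 107 and 83.8 CPM untreated, against 51.4 and 37.8 CPM with TGF-β1. HSF2oe cells held 73.5 and 60.9 CPM untreated, against 43.7 and 27.7 CPM with TGF-β1. Within each transfection both TGF-β libraries lay below both controls. INHBB fell by 1.10 ± 0.20 on the log2 scale in Mock and by 0.91 ± 0.20 in HSF2oe cells (adjusted p = 0.00203 and 0.0109, edgeR). The call in HSF2oe cells was lost without HSF2oe control 1 (adjusted p = 0.0988) or HSF2oe TGF-β 2 (adjusted p = 0.0916). HSF2oe over Mock was -0.51 ± 0.19 in control medium and -0.31 ± 0.20 under TGF-β, and neither passed (adjusted p = 0.106 and 0.304). Among other tools, filters, scalings and left-out libraries, the first passed with only the 4 libraries compared (adjusted p = 0.0169), without HSF2oe TGF-β 1 or 2 (adjusted p = 0.0393 and 0.0405) and with no low-count filter (adjusted p = 4.17e-04), and the second passed without HSF2oe TGF-β 1 (-0.67, adjusted p = 0.0486).

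INHBE (ENSG00000139269.3, chromosome 12, 57452323 to 57459280, plus strand) encodes the subunit of activin E, a ligand best known from liver, and was called with TGF-β in both transfections and with HSF2oe at both treatments. Mock cells held 52.6 and 70.1 CPM of INHBE untreated and 179.5 and 207 CPM with TGF-β1. HSF2oe cells held 11.3 and 20.3 CPM untreated and 30.9 and 60.6 CPM with TGF-β1, so that 3 of these 4 libraries lay below every Mock library. With HSF2 and TGF-β together it reached 45.8 ± 21.0 CPM, a range that overlapped untreated Mock cells. INHBE rose with TGF-β by 1.66 ± 0.27 in Mock (adjusted p = 0.0011) and by 1.52 ± 0.29 in HSF2oe cells (adjusted p = 0.00457, edgeR). The second call was lost without HSF2oe control 1 (adjusted p = 0.0504), and its size was 0.97 without HSF2oe TGF-β 2. HSF2oe over Mock was -1.96 ± 0.29 in control medium (adjusted p = 0.00137, edgeR) and -2.09 ± 0.28 under TGF-β (adjusted p = 3.24e-04), so that Mock libraries held 3.88 and 4.25 times as much. Both of these calls held in every setting tried. An antisense gene covers 16.4% of the exonic bases of INHBE; it had 8 to 39 counts per library, and INHBC, the subunit gene beside INHBE, had 0 to 3.

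By share of the 3 subunits summed per length, INHBA made up 40.8% and 44.7% in the Mock control libraries and 60.5% and 62.9% in Mock TGF-β. In HSF2oe cells it made up 60.7% and 61.6% in control and 84.2% and 81.0% with TGF-β. INHBB took 29.4% to 39.0% in Mock control and 28.4% to 33.9% in HSF2oe control, and 5.47% to 9.04% in the 4 TGF-β libraries. The share of INHBE was 20.1% to 31.6% over the Mock libraries and 5.46% to 13.2% over the HSF2oe libraries. Shares of a whole move against each other, and no test was made on them. They also depend on the annotated lengths, 8284 bases for INHBA, 3206 for INHBB and 3046 for INHBE.

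**Figure D2:**
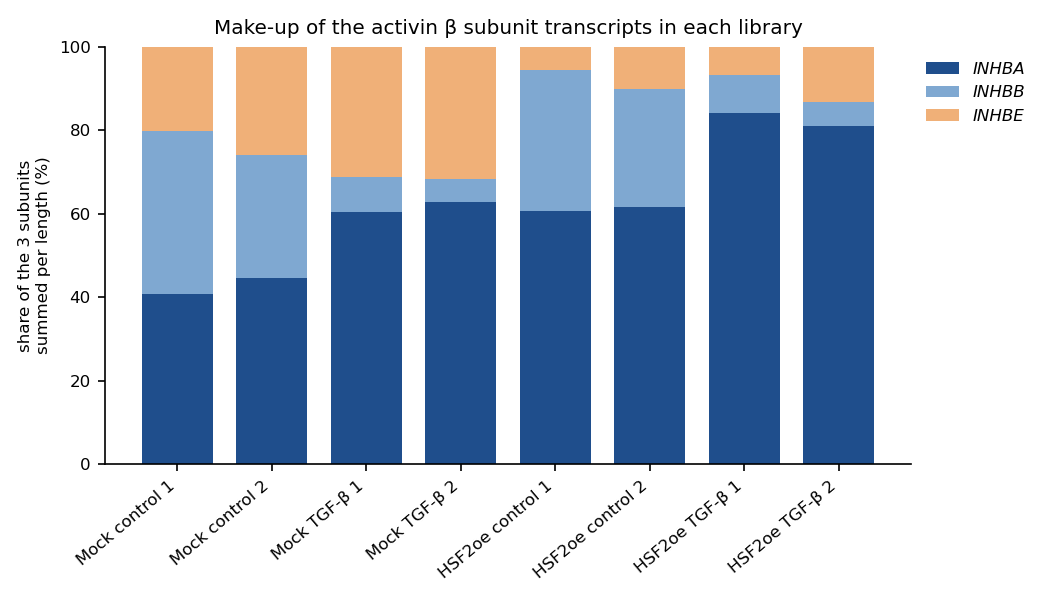
Share in percent (y axis) of INHBA, INHBB and INHBE in their sum per length, with 1 bar for each of the 8 libraries. INHBA takes over 80% in both HSF2oe TGF-β libraries, and INHBB is under 10% wherever TGF-β1 was given.

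Among the antagonists, FSTL3 (ENSG00000070404.10, chromosome 19, 676392 to 683392, plus strand) rose with TGF-β in both transfections. Levels of FSTL3 in Mock cells were 97.4 and 97.3 CPM untreated and 305.5 and 306.2 CPM with TGF-β1. In HSF2oe cells they were 87.3 and 80.1 CPM untreated and 195 and 189.9 CPM with TGF-β1. The 4 groups did not overlap. FSTL3 rose by 1.65 ± 0.09 in Mock and by 1.20 ± 0.09 in HSF2oe cells (adjusted p = 3.28e-07 and 5.25e-06, edgeR). HSF2oe over Mock was -0.22 ± 0.09 in control, which did not pass (adjusted p = 0.145), and -0.67 ± 0.09 with TGF-β (adjusted p = 3.82e-04). The 2 TGF-β effects differed by -0.45 (95% interval -0.73 to -0.17), with an unadjusted p of 0.00405 in the edgeR model and an adjusted p of 0.646.

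FST (ENSG00000134363.12, chromosome 5, 53480626 to 53487134, plus strand), encoding the tight-binding antagonist follistatin, was not called with TGF-β in either transfection. Mock cells held 136 and 107 CPM of FST untreated and 131 and 85.3 CPM with TGF-β1. HSF2oe cells held 119.8 and 130.0 CPM untreated and 164 and 143 CPM with TGF-β1. The Mock groups overlapped, and both HSF2oe TGF-β libraries were above all others. The log2 fold change of FST with TGF-β was -0.17 in Mock (95% interval -0.53 to 0.19) and 0.30 in HSF2oe cells (-0.06 to 0.66), adjusted p = 0.601 and 0.357 (edgeR). The first turned positive without Mock control 1 (0.01) or Mock TGF-β 2 (0.11). FST was higher in HSF2oe than in Mock cells with TGF-β, by 0.51 ± 0.17 (adjusted p = 0.0453, edgeR), a call lost without HSF2oe TGF-β 1 (adjusted p = 0.199) or Mock TGF-β 2 (0.24, adjusted p = 0.380); it was 0.85 without Mock TGF-β 1. Without TGF-β the difference was 0.04 (-0.32 to 0.40), which also turned in sign when Mock control 2 (-0.12) or HSF2oe control 2 (-0.01) was left out.

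FSTL1 (ENSG00000163430.12, chromosome 3, 120392293 to 120450993, minus strand) reached 2563 and 3203 CPM in untreated and 3438 and 4210.4 CPM in treated Mock cells. HSF2oe cells held 1890.2 and 2296 CPM untreated and 2544 and 2819 CPM with TGF-β1. TGF-β libraries lay above the controls of their transfection and HSF2oe libraries below their Mock counterparts, without overlap, but the steps were small. With TGF-β, FSTL1 differed by 0.41 ± 0.15 in Mock and 0.36 ± 0.15 in HSF2oe cells (adjusted p = 0.0866 and 0.181, edgeR). Among other tools, filters, scalings and left-out libraries, the first passed with DESeq2 (adjusted p = 0.0239), without Mock control 2 (0.57, adjusted p = 0.0491) and with no low-count filter, and the second with no such filter (adjusted p = 9.11e-04 and 0.00387). HSF2oe over Mock was -0.46 ± 0.15 without TGF-β (adjusted p = 0.0557), which passed under the same kinds of setting with DESeq2 (adjusted p = 0.0105), with no low-count filter and without Mock control 1 or either HSF2oe TGF-β library (adjusted p = 3.77e-05 to 0.0439). With TGF-β it was -0.51 ± 0.15 (adjusted p = 0.0241, edgeR), a call lost without Mock TGF-β 2 (adjusted p = 0.221) or HSF2oe TGF-β 1 (adjusted p = 0.150), or by library totals alone (-0.32, adjusted p = 0.0981).

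Ratios per length put ligand and antagonist side by side. INHBA over FST was 0.71 and 1.03 in untreated and 2.42 and 4.37 in treated Mock cells, and 0.944 and 0.871 in untreated and 2.13 and 2.34 in treated HSF2oe cells. INHBA over FSTL3 was 1.09 to 1.34 in all 4 Mock libraries, 1.43 and 1.56 in untreated HSF2oe cells and 1.97 and 1.95 in treated ones. In Mock cells the ratio to FST was thus higher with TGF-β1 in both libraries, while the ratios to FSTL3 with and without it overlapped. FST over FSTL3 was 1.54 and 1.21 in untreated and 0.471 and 0.307 in treated Mock cells, and 1.51 and 1.79 against 0.925 and 0.832 in HSF2oe cells. These ratios combine the levels tested above and were not tested again.

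**Figure D3:**
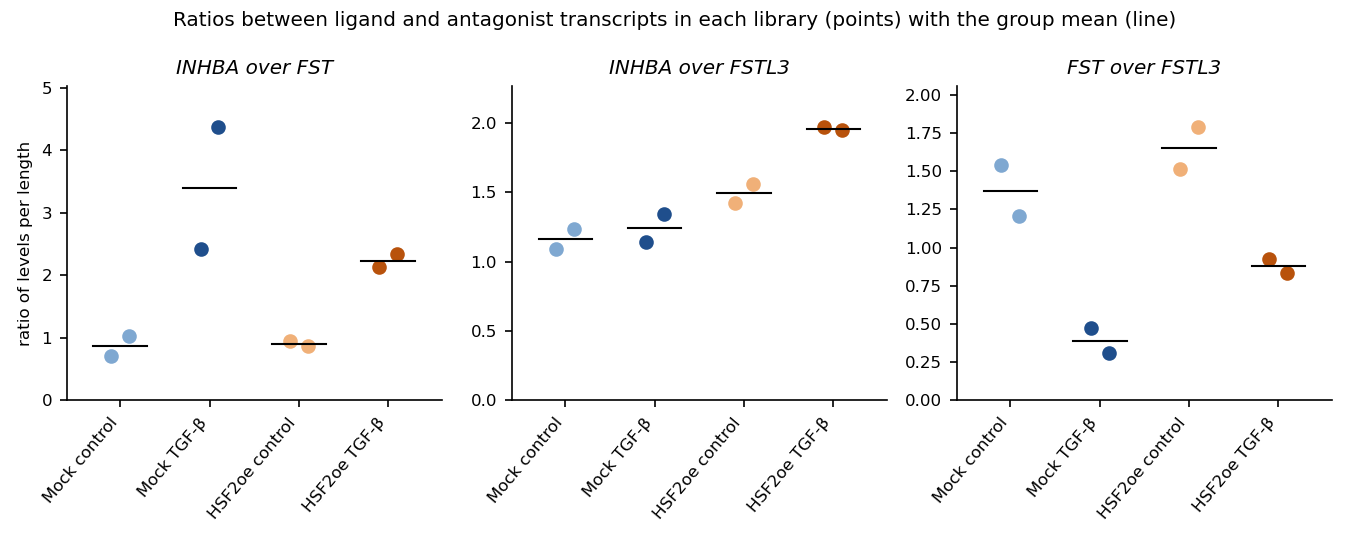
Ratios of per-length levels (y axis, from 0) of INHBA over FST, INHBA over FSTL3 and FST over FSTL3, with 2 libraries per group and a line at the mean. INHBA over FST is above 2 in the 4 TGF-β libraries and near 1 in the controls, while INHBA over FSTL3 is highest in HSF2oe TGF-β.

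Of the 4 receptor genes, only ACVR1 passed in the edgeR fit, in 2 comparisons. ACVR1 (ENSG00000115170.16, chromosome 2, 157736251 to 157876330, minus strand), a type I receptor used mainly by bone morphogenetic proteins and able to bind activin without signalling to the activin SMADs, measured 98.4 and 114 CPM in untreated and 155 and 185 CPM in treated Mock cells. HSF2oe cells held 92.0 and 83.7 CPM of it untreated and 106 and 100.4 CPM with TGF-β1. The Mock TGF-β libraries were the highest, and the HSF2oe TGF-β libraries lay within the Mock control range. ACVR1 rose by 0.68 ± 0.11 with TGF-β in Mock cells (adjusted p = 0.00124, edgeR), or 0.41 by library totals alone. In HSF2oe cells it differed by 0.24 (95% interval -0.01 to 0.48, adjusted p = 0.268). HSF2oe over Mock was -0.71 ± 0.11 with TGF-β (adjusted p = 9.36e-04, edgeR) and -0.27 ± 0.11 without it (adjusted p = 0.135). The difference between both TGF-β effects was -0.44 (-0.79 to -0.10), with an unadjusted p of 0.0162 in the edgeR model and an adjusted p of 0.742.

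ACVR1B (ENSG00000135503.13, chromosome 12, 51951699 to 51997078, plus strand), the main activin type I receptor, ranged from 20.8 to 27.0 CPM over the 8 libraries. Its log2 differences were 0.16 (95% interval -0.12 to 0.43) and 0.08 (-0.19 to 0.34) with TGF-β in Mock and HSF2oe cells, and 0.04 (-0.23 to 0.31) and -0.04 (-0.32 to 0.24) for HSF2oe over Mock. By library totals alone, 3 of these 4 changed sign (-0.11, -0.09 and 0.15), and the first also did without Mock TGF-β 2 (-0.05). None passed (lowest adjusted p = 0.502, edgeR).

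ACVR2A (ENSG00000121989.15, chromosome 2, 147844517 to 147930826, plus strand), a type II receptor, ranged from 7.33 to 12.9 CPM, with the highest 2 libraries in Mock TGF-β. The HSF2oe over Mock difference with TGF-β was -0.43 (95% interval -0.80 to -0.05, adjusted p = 0.101, edgeR) and passed only without HSF2oe TGF-β 1 (-0.70, adjusted p = 0.0363) among the libraries left out. ACVR2A shares 8.39% of its exonic bases with ORC4 and another antisense gene. ORC4 had 130 to 379 counts per library and ACVR2A 170 to 372. Read pairs that overlapped both genes alike were not assigned to either by the counting used.

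The other type II receptor gene, ACVR2B (ENSG00000114739.14, chromosome 3, 38453890 to 38493142, plus strand), had 41 to 165 counts per library. Mock cells held 3.45 and 4.54 CPM of it untreated and 2.67 and 2.76 CPM with TGF-β1. HSF2oe cells held 4.01 and 5.12 CPM untreated and 4.20 and 4.09 CPM with TGF-β1. Both Mock TGF-β libraries were the lowest. TGF-β in Mock cells gave -0.56 ± 0.24 and HSF2oe over Mock with TGF-β 0.61 ± 0.24, and neither passed (adjusted p = 0.149 and 0.0848, edgeR). By library totals alone both passed (-0.82 and 0.80, adjusted p = 0.0172 and 0.0193).

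With TGF-β1 in HSF2oe cells, INHBA, INHBE and FSTL3 rose and INHBB fell, so that 3 of the 10 genes were called up and 1 down, beside 8.26% of all genes (4.45% up and 3.82% down). The median over the 10 was 0.27, beside -0.01 over all genes. For HSF2oe over Mock without TGF-β, INHBE alone was called, down, beside 12.1% of all genes (4.88% up and 7.22% down); the median over the 10 was -0.21, beside -0.00 over all genes. With TGF-β, FST was called up and INHBE, FSTL1, FSTL3 and ACVR1 down, beside 21.5% of all genes (9.6% up and 11.9% down), and the median was -0.37, beside -0.00. These comparisons share groups with each other, so their results are not independent.

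No difference between the TGF-β effects of both transfections was called for any of the 10 genes, and 0 of 16008 genes were called at all by edgeR (0%), with 977 at an unadjusted p under 0.05; DESeq2 called 24 genes, none of the 10. A gene called in one transfection and not in the other, such as ACVR1, is therefore not shown to respond differently. The intervals of these differences were wide for INHBE (-0.97 to 0.71) and INHBB (-0.40 to 0.79) and narrower for INHBA (-0.48 to 0.19).

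**Figure D4:**
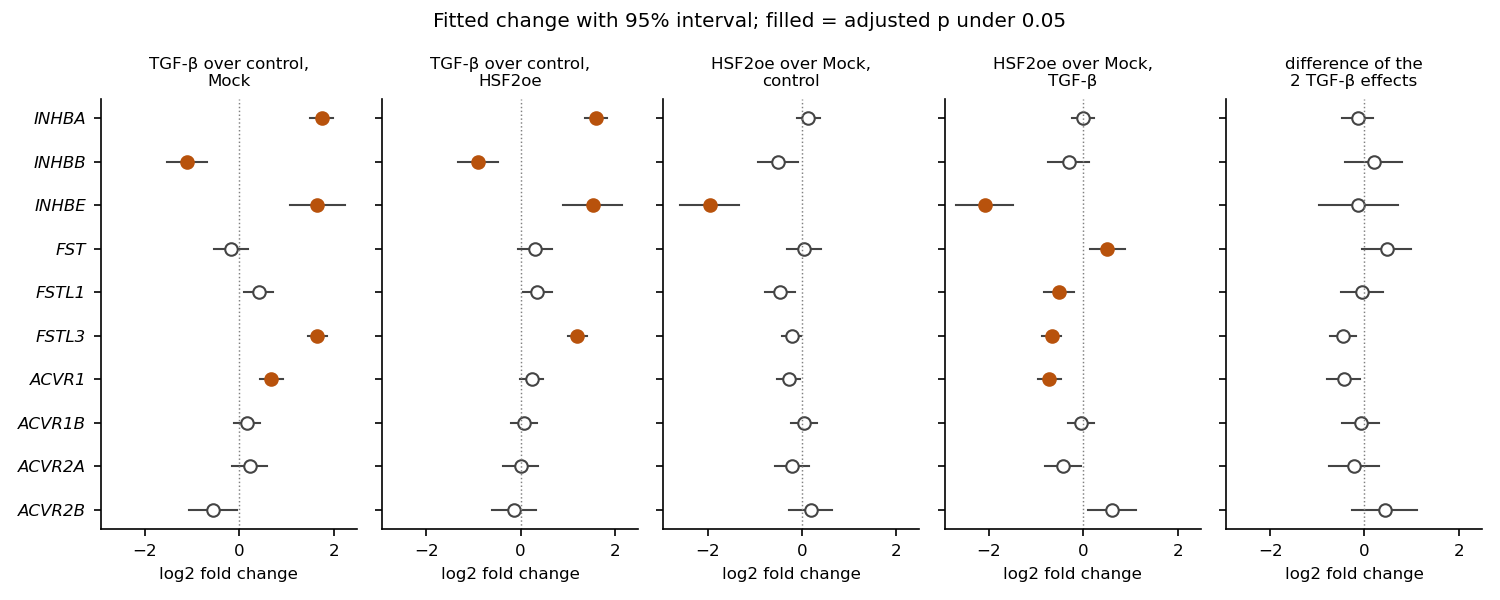
Log2 fold change (x axis) of the 10 genes in the 5 comparisons, as fitted value with its 95% interval; filled points have an adjusted p under 0.05 in edgeR. INHBA, INHBB, INHBE and FSTL3 are called with TGF-β in both transfections, INHBE is lower in HSF2oe at both treatments, and no point is filled for the difference of the TGF-β effects.

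The genes with the levels most like those of INHBA over the 8 libraries, among 11676 others, were PMEPA1, ADAM19, ST6GAL2, CEMIP2 and GPAM (Pearson r of log2 CPM 0.996, 0.994, 0.994, 0.994 and 0.993). For FSTL3 they were HSPA13, ITGA5, MYADM, PCDH1 and MICAL2 (r from 0.994 to 0.995), and for FST they were RRP1, DAZAP1, EXOSC4, THAP3 and SAMD1 (r from 0.949 to 0.968). The 8 points share 4 groups and their scaling, so these values describe the group pattern.

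Around the 10 genes, other ligands and antagonists of the superfamily had 2 rises and 1 fall with TGF-β in Mock, among 10 tested of 22 listed. In HSF2oe cells they had 1 and 1. For HSF2oe over Mock they had 2 rises and 2 falls without TGF-β, and 2 and 4 with it. Over all genes tested, 13.8%, 8.26%, 12.1% and 21.5% were called in these 4 comparisons. With TGF-β in Mock the rises were BMP6 and LEFTY2. LEFTY2, an antagonist of the activin relative nodal, had no read in the 4 control libraries, 11 and 29 in treated Mock cells and 4 and 1 in treated HSF2oe cells. BMP6, a bone morphogenetic protein, had 4 and 5 reads in untreated and 296 and 398 in treated Mock cells, and 28 and 23 in untreated and 382 and 332 in treated HSF2oe cells. BMP6 thus rose in both (7.02 ± 0.26 and 4.0 ± 0.20 on the log2 scale, adjusted p = 1e-08 and 1.49e-07, edgeR). The difference of these 2 effects was -3.01 (95% interval -3.90 to -2.12). It did not pass (adjusted p = 0.0873, edgeR), though no gene tested had a smaller adjusted p for this difference. BMP4, of the same family, fell with TGF-β in Mock (-1.35 ± 0.20, adjusted p = 4.37e-04, edgeR) and in HSF2oe cells (-0.83 ± 0.20, adjusted p = 0.0210), the latter call being lost with only the libraries compared (adjusted p = 0.0742) and without HSF2oe control 2 (-0.41, adjusted p = 0.250) or HSF2oe TGF-β 1 or 2 (adjusted p = 0.0594 and 0.114). It was also lower in HSF2oe than in Mock control cells (-1.14 ± 0.19, adjusted p = 0.00238). INHA, the inhibin α subunit that turns activin subunits into inhibin, had 7 to 23 counts per library. BMP2 was higher with HSF2oe under TGF-β (1.28 ± 0.25, adjusted p = 0.00318, edgeR), and 0.85 without HSF2oe TGF-β 1. Without TGF-β it was higher by 0.96 ± 0.24 (adjusted p = 0.0209, edgeR), a call lost without Mock control 1 or 2 (adjusted p = 0.0537 and 0.146) or HSF2oe control 1 (0.57, adjusted p = 0.259). The median of the 10 tested was 0.17 and 0.06 with TGF-β in Mock and HSF2oe cells. For HSF2oe over Mock it was -0.17 and -0.52 without and with TGF-β. Over all genes these medians were -0.004, -0.009, -0.002 and -0.003.

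Other receptors and coreceptors had 1 rise and 1 fall among 13 tested with TGF-β in Mock and 1 and 2 in HSF2oe cells. For HSF2oe over Mock they had 2 and 1 without TGF-β, and 1 and 4 with it. The shares of all genes called were again 13.8%, 8.26%, 12.1% and 21.5%. TGFBR3, or betaglycan, the coreceptor through which inhibin blocks activin, fell in HSF2oe cells (-1.13 ± 0.18, adjusted p = 0.00143, edgeR), and in Mock cells by 0.83 ± 0.19, a call lost without Mock control 1 (adjusted p = 0.0789) or Mock TGF-β 2 (adjusted p = 0.0718). BMPR2, a type II receptor that can also bind activins, rose with TGF-β in Mock cells (0.72 ± 0.13, adjusted p = 0.00178, edgeR), or 0.46 by library totals alone. It also rose in HSF2oe cells (0.53 ± 0.13, adjusted p = 0.0185), a call lost by library totals alone and without any 1 of the 4 HSF2oe libraries (adjusted p = 0.0560 to 0.123). TGFBR2, the TGF-β type II receptor, fell with TGF-β in HSF2oe cells by 0.72 ± 0.12 (adjusted p = 0.00201, edgeR), beside -0.37 ± 0.12 in Mock, which did not pass (adjusted p = 0.0557). These 2 effects differed by -0.34 (95% interval -0.71 to 0.02), which did not pass (adjusted p = 0.834, edgeR). HSF2oe over Mock was 0.39 ± 0.12 for TGFBR2 without TGF-β (adjusted p = 0.0464, edgeR). That call was lost without any 1 of the 4 libraries compared. With TGF-β it was 0.05 ± 0.12 (adjusted p = 0.807, edgeR). RGMB, a bone morphogenetic protein coreceptor, was higher with HSF2oe (1.25 ± 0.17 without and 1.55 ± 0.18 with TGF-β, adjusted p = 0.00104 and 1.58e-04). The list's medians were -0.14, -0.03, -0.17 and -0.28 in the same order, beside -0.004, -0.009, -0.002 and -0.003 over all genes.

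SMADs and their regulators had 4 rises and 1 fall among 18 tested with TGF-β in Mock, and 3 and 2 in HSF2oe cells. For HSF2oe over Mock they had 2 and 1 rises without and with TGF-β. Of all genes, 13.8%, 8.26%, 12.1% and 21.5% were called in the same order. SMAD3, an effector of activin and TGF-β receptors, fell by 0.76 ± 0.10 in Mock and by 0.83 ± 0.09 in HSF2oe cells (adjusted p = 1.55e-04 and 1.09e-04, edgeR). The inhibitors SKIL and PMEPA1 rose in both, SKIL by 0.88 ± 0.09 and 0.81 ± 0.09 and PMEPA1 by 2.11 ± 0.14 and 1.83 ± 0.14. SMURF2, a ubiquitin ligase acting on SMADs and receptors, was higher with HSF2oe without TGF-β (0.78 ± 0.14, adjusted p = 0.00333, edgeR) and with it (0.92 ± 0.14, adjusted p = 6.40e-04). The first of these calls was lost without Mock control 2 (adjusted p = 0.0510) or HSF2oe control 1 (adjusted p = 0.0517). Of 3 proprotein convertases tested, FURIN, which cleaves activin precursors, rose in both (0.82 ± 0.09 and 0.68 ± 0.09, adjusted p = 6.03e-05 and 3.78e-04), and none was called for HSF2oe over Mock. No gene of the 4 lists was called for the difference of the TGF-β effects in the main edgeR fit. What the other settings gave for these lists is not reported here.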

How the data were processed

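Gene counts were deposited by the authors, who made them with featureCounts 2.0.1 on read pairs against GENCODE release 38, per the file headers, with no strand or overlap option although the labels name a stranded kit. Reads in exonic bases shared with an antisense gene therefore cannot be told apart by strand. Without the overlap option, read pairs that overlap 2 genes alike are not counted for either. The lengths used for RPKM include the shared bases, 16.4% of them for INHBE and 8.39% for ACVR2A. RPKM and subunit shares of such genes may thus be too low, by an amount that was not tested. The submitters' processing notes list STAR 2.7.9a, GRCh38 and edgeR 3.34.1. A second deposited table holds log2 CPM of 13169 genes, which for the 10 genes lay within 0.0288 of TMM log2 CPM (prior count 2) from the counts.

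Groups came from the titles. Counts were fitted with edgeR 4.0.16 (R 4.3.3): filterByExpr, TMM, a quasi-likelihood model with 1 mean per group over 8 libraries (common biological variation 9.91%), 2-sided tests and Benjamini-Hochberg adjustment over 16008 genes at 0.05. Each standard error is the size of the log2 fold change over the square root of F, and 95% intervals use the model's degrees of freedom. CPM and RPKM use TMM-scaled totals. A count of 0 allows up to 3 counts, or 0.0851 to 0.195 CPM, for counting error only. Within groups, libraries differed 12.5 to 26.8 times as much as sampling noise gives, so none was a copy. Alternatives were other scalings, filters, DESeq2 1.42.0, limma 3.58.1 on the deposited values, thinning, a replicate block and each library left out. The 10 genes, the 4 pathway lists and the lists of markers were chosen with earlier results of these data known. The rule for named genes took the 10, HSF2 and list members called in a comparison. It also took the 5 genes nearest to INHBA, FSTL3 and FST by Pearson r, where mean log2 CPM was 1 or more. Only some of the list members called are named, chosen with their values known, and several of these had a call that was lost in some setting. Outside that rule, INHA, genes that overlap or adjoin the 10, cell markers and the genes nearest to INHBE and INHBB are also named.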

Additional observations from a re-analysis of the deposited data

How the results depend on the processing

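Of 15 calls among the 10 genes, 11 held in all 17 settings tried. By library totals alone, 4493 genes were called with TGF-β in Mock (608 up and 3885 down, beside 1172 and 1040) and 2045 in HSF2oe cells (452 and 1593, beside 712 and 611), and the split for HSF2oe over Mock was 1432 up and 807 down without TGF-β (beside 781 and 1156) and 3526 and 1073 with it (beside 1537 and 1912). With TGF-β, ACVR1B and ACVR2A then turned to -0.11 and -0.041 in Mock and -0.087 and -0.16 in HSF2oe cells; for HSF2oe over Mock with TGF-β, INHBA turned to 0.19 and ACVR1B to 0.15, and the difference of TGF-β effects to 0.052 for FSTL1 and 0.020 for ACVR1B. The INHBA difference for HSF2oe with TGF-β, near 0, was also positive with no filter (0.014), the stricter filter (3.36e-04), limma on the deposited log2 CPM (9.87e-04), only the libraries compared (0.0034) and thinning (0.014). The ACVR2A effect of TGF-β in HSF2oe cells was -0.0018 with the stricter filter, -0.034 with limma and -0.11 after thinning. For HSF2oe over Mock without TGF-β, 2 of the 10 genes were called with DESeq2, 3 with no filter and 2 with only the libraries compared, beside 1. Over all genes, 1685 of 14538, 2441 of 31802 and 2276 of 15559 were called in these settings, beside 1937 of 16008. The difference of TGF-β effects gave 24 genes with DESeq2 and 83 with no filter.

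The replicate numbers are not said to mark a shared batch. Over all genes tested, differences between replicates 1 and 2 correlated between groups at 0.05 to 0.16. In every group INHBB was higher in replicate 1, and INHBE and FSTL1 were higher in replicate 2. The others of the 10 genes kept no single direction. Pairing is thus neither established nor excluded, and the main fit, which has no block, ignores any shared replicate difference. With the replicate block, 3350 and 2366 genes were called with TGF-β in Mock and HSF2oe, and 78 for the difference of effects. For HSF2oe over Mock the block called 3614 of 16008 genes without TGF-β (5 of the 10) and 4900 with it (8 of the 10). The genes gained under the block were FSTL1 with TGF-β in Mock and HSF2oe (adjusted p = 0.00138 and 0.00529, edgeR), INHBB, FSTL1, FSTL3 and ACVR1 for HSF2oe without TGF-β (adjusted p = 3.90e-04, 6.12e-04, 0.0453 and 0.0425), and INHBB, ACVR2A and ACVR2B with it (adjusted p = 0.0134, 0.0478 and 0.0433).

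Leaving out 1 library gave 1143 (without Mock TGF-β 2) to 2266 calls with TGF-β in Mock, also 1162 without Mock control 1. In HSF2oe cells it gave 673 (without HSF2oe control 1) to 1334, with 798 and 696 without HSF2oe control 2 and HSF2oe TGF-β 2, and 2 to 4 of the 10 genes. For HSF2oe over Mock it gave 368 (without HSF2oe control 1) to 1993 calls without TGF-β, with 453 and 1252 without Mock control 2 and 1, and 1 to 3 of the 10 genes; with TGF-β it gave 1509 (without Mock TGF-β 2) to 3331 calls, with 1633 without HSF2oe TGF-β 1, and 3 to 5 of the 10. Signs changed in these ranges. With TGF-β in Mock, FST ran from -0.51 to 0.11 and ACVR1B from -0.052 to 0.33; in HSF2oe cells, ACVR2A from -0.27 to 0.23 and ACVR2B from -0.30 to 0.047. For HSF2oe without TGF-β, FST ran from -0.12 to 0.23 and ACVR1B from -0.0033 to 0.089; with TGF-β, INHBA from -0.12 to 0.12 and ACVR1B from -0.21 to 0.17. For the difference of effects, INHBB ran from -0.16 to 0.49, INHBE from -0.68 to 0.36, FSTL1 from -0.21 to 0.11, ACVR1B from -0.25 to 0.13 and ACVR2A from -0.49 to 0.012. Where a library was left out of a pair, the lone one was taken to vary like the other groups. The cause of these changes was not tested. Of the 10 genes, ACVR2B had the fewest counts, down to 41 in a library.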

Other observations

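Over the 8 libraries, genes with levels among the most like those of INHBE were CTIF, ABHD4, TRIM16 and ANXA6, an annexin (Pearson r of log2 CPM 0.997, 0.997, 0.995 and 0.995). For INHBB they were FLRT3, FYN, SNX21, SECTM1 and AKR1C1 (r from 0.978 to 0.991). INHBE and INHBB were taken for this after their values had been seen, the points share 4 groups, and the values are a description. On the log2 scale the fitted differences of the 4 genes named for INHBE were smaller than that of INHBE. For HSF2oe over Mock with TGF-β they were -0.69 for CTIF, -0.97 for ABHD4, -0.54 for TRIM16 and -0.54 for ANXA6, against -2.09 for INHBE.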
